A study of Saccharomyces cerevisiae with 48 samples.

Results

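The genes described here are those of glucose entry and its external sensing in budding yeast (Saccharomyces cerevisiae): the hexose transporter genes HXT1 to HXT7, the glucose sensor genes SNF3 and RGT2, and MTH1, which encodes a partner of the repressor Rgt1. They were chosen by ORF name as a family with its regulators, 10 genes in all, and not by their measured values. Of the 10 genes, 7 were among the 3301 genes of the read count tables. HXT5, HXT6 and SNF3 were not, and were read from a table of pooled mRNA that the authors deposited, which lists 6713 ORFs. No gene of the count tables has fewer than 10 reads in any mRNA library, so a gene very low in the smallest cells could not enter them.

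Glucose enters yeast by facilitated diffusion through hexose transporters of different affinity. HXT1 and HXT3 encode low-affinity transporters used at high glucose, HXT2, HXT4, HXT6 and HXT7 encode high-affinity transporters used when glucose is scarcer, and HXT5 encodes a transporter of moderate affinity known from slowly growing and stressed cells. Snf3 and Rgt2 sit in the plasma membrane and sense glucose without carrying it, and their signal leads to the degradation of Mth1 and its relative Std1, which frees HXT genes from repression by Rgt1. Several HXT genes are also repressed by Mig1 and Mig2 when glucose is plentiful.

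The samples were of the diploid laboratory strain BY4743, grown in YPD with 2% dextrose at 30 °C, with no gene deletion or drug in any group. Centrifugal elutriation, which sorts cells by size, gave unbudded early G1 cells that grew on and were harvested at 8 sizes, from 40 fl to 75 fl in steps of 5 fl. A replicate (A, B or C at each size) was 1 pool of same-size cells, from which a poly(A) mRNA library and a library of ribosome footprints, the fragments that ribosomes shield from RNase I, were made, 48 libraries in all. The sources used here do not give the glucose level of the medium at harvest. Lipid enzymes, not transporters, are the subject in the study's title; the comparisons below are those its design allows across sizes, for mRNA, for footprints, and for footprints relative to mRNA.

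The mRNA libraries held between 248840 and 5797532 counted reads, with the shallowest at 40 fl in replicate B, and the footprint libraries between 26360 and 5659096, of which 6 held under 150000 (50 fl B and C, 60 fl C, 65 fl B and C, 70 fl C). None of the 12 haploid-specific genes listed as markers of another cell type was counted. The count tables hold only 3301 genes, whereas the pooled table lists 6713 ORFs and has values for these 12. Their absence from the counts therefore does not show the cell type. All 7 counted core histone genes, markers of S phase, rose in mRNA along a slope fitted over the sizes, where 19.4% of all genes rose. The rise was not steady. Their summed mRNA, in counts scaled to library size (CPM), averaged 1531 at 40 fl, 11844 at 60 fl and 6137 at 75 fl. In footprints the mean histone level was higher at 75 than at 40 fl in B (8.90 against 6.89 log2 CPM, counts scaled to library size on a log2 scale) and in C (9.12 against 6.94), whereas in A it was lower (6.65 against 9.65), differences that were not tested. At these end sizes the histone footprints of A were thus in the opposite order to those of B and C, and footprint results are therefore given both with replicate A and without it.

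The 10 genes lie on chromosomes IV, VIII and XIII (assembly R64). HXT4 (YHR092C, VIII 287081 to 288811), HXT1 (YHR094C, VIII 290913 to 292625) and HXT5 (YHR096C, VIII 294669 to 296447) lie close together, as do HXT7 (YDR342C, IV 1154216 to 1155928), HXT6 (YDR343C, IV 1159608 to 1161320) and HXT3 (YDR345C, IV 1162957 to 1164660). HXT2 (YMR011W) is at XIII 288079 to 289704, and SNF3 (YDL194W, IV 111580 to 114234), RGT2 (YDL138W, IV 213351 to 215642) and MTH1 (YDR277C, IV 1014401 to 1015702) stand apart on chromosome IV. HXT6 and HXT7 are near-identical in sequence, and the sources used here do not say how shared reads were divided between them, so HXT6 and HXT7 values are uncertain, as is any count of reads shared with another HXT gene.

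HXT7 was the most abundant of the 7 counted genes and the sensor RGT2 the least. On the scale of CPM per kb (counts scaled to library size, CPM, and divided by gene length), which allows genes to be compared, the median mRNA level over 24 libraries was 633 for HXT7, 270 for HXT3, 74.1 for HXT4, 59.6 for MTH1, 35.9 for HXT2, 32.2 for HXT1 and 12.6 for RGT2. HXT7 stood above HXT3 in 24 of 24 libraries, HXT3 above HXT4 in 23, HXT4 above MTH1 in 20 and MTH1 above HXT2 in 20. HXT2 stood above HXT1 in only 10 of 24, so these neighbours could not be put in order. RGT2 was below HXT1 in every library.

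The order below HXT3 shifted with size, with HXT4 higher and HXT2 lower in the order at 75 fl than at 40 fl. At 40 fl the mean mRNA level of HXT4 was 33.7 ± 4.9 CPM per kb (SD, n = 3), the fifth of the 7 genes, below HXT2 (92.3 ± 38.4) and MTH1 (40.2 ± 12.7). At 75 fl HXT4 was the third at 251 ± 66 CPM per kb, with HXT2 at 40.4 ± 20.7. HXT7 and HXT3 held the top places at all 8 sizes, and RGT2 the lowest.

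**Figure D1:**
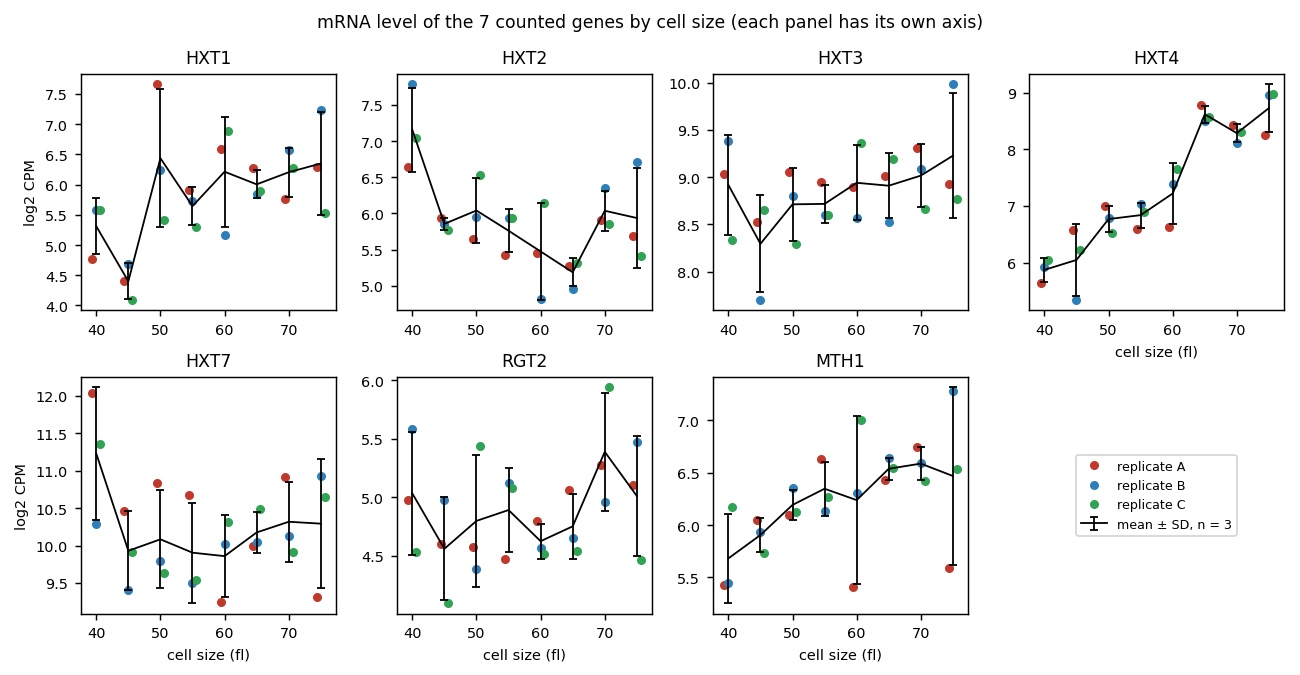
mRNA level (log2 CPM, y axes) against cell size (fl, x axes) for the 7 counted genes; coloured points are single libraries and the black line joins means with SD bars (n = 3). HXT4 rises from 5.87 at 40 fl to 8.73 at 75 fl, HXT2 and HXT7 are highest at 40 fl, and HXT1 is lowest at 45 fl.

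Across sizes, HXT4, HXT2 and HXT1 differed in mRNA and the other 4 counted genes did not pass. Levels below are log2 CPM and tests are edgeR's quasi-likelihood tests with Benjamini-Hochberg adjustment over all 3301 genes at 0.05. The 3 of 7 called across the 8 sizes compare with 26.0% of all genes. Along a fitted slope in log2 per 5 fl, HXT4 and MTH1 rose and none of the 7 fell, that is 2 of 7 where 41.6% of all genes were called, 19.4% rising and 22.1% falling. DESeq2 called 4 of the 7 across sizes, HXT7 in addition (DESeq2 adjusted p = 0.0493), against 42.2% of all genes. Along the slope it called 3 of the 7, with HXT2 falling in addition (-0.11, DESeq2 adjusted p = 0.0482), against 45.2% of all genes, 22.9% rising and 22.3% falling. The median slope of the 7 genes was 0.08 log2 per 5 fl, and that of all genes was -0.003. Whether replicates A, B and C were grown as separate cultures is known only from their description as separate pools, and the p-values measure the spread between these pools. In such bulk samples, fewer cells of a type and less RNA per cell cannot be told apart.

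Among the low-affinity transporters, HXT3 did not pass in mRNA over all libraries, and HXT1 was low in the 45 fl cells. HXT1 stood at 4.78, 5.58 and 5.57 log2 CPM in replicates A, B and C at 40 fl, 4.41, 4.69 and 4.10 at 45 fl, and was 7.66, 6.24 and 5.41 at 50 fl. The 45 fl values lie below those of every other library, and the 50 fl values spread widest, with replicate A the highest of all 24. In the 40 fl library of B, HXT1 has 11 reads, and the lowest count of any gene kept, 10 reads, stands at 5.45 log2 CPM. A value there as low as those at 45 fl would have kept HXT1 out of the counted genes. At 75 fl the replicates held 6.29, 7.23 and 5.53 log2 CPM.

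HXT1 differed across sizes in mRNA (edgeR adjusted p = 0.0158), with a largest fitted difference between sizes of 2.37 log2, from 45 to 50 fl. That step itself did not pass (SE 0.49, edgeR adjusted p = 0.0708), against a share of 0.0303% of all genes called in this step. The slope of HXT1 was 0.15 log2 per 5 fl (SE 0.07, edgeR adjusted p = 0.0823). The call across sizes was lost when any 1 replicate was left out (edgeR adjusted p from 0.0526 to 0.0720) and also without the single 45 fl library of replicate C (0.0514). The slope passed without the 50 fl library of A (0.23, edgeR adjusted p = 0.00121), without the 75 fl library of C (0.18, 0.0496) or without replicate A (0.23, 0.0122).

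HXT3 mRNA lay between 7.71 and 9.98 log2 CPM in all 24 libraries, lowest at 45 fl (mean 8.30 ± 0.51, SD, n = 3) and highest at 75 fl (9.23 ± 0.66). Both extremes were libraries of replicate B. Its difference across sizes did not pass (edgeR adjusted p = 0.405), nor did its slope of 0.08 log2 per 5 fl (SE 0.04, edgeR adjusted p = 0.0870). With the 40 fl size left out its slope was 0.14 and passed (edgeR adjusted p = 0.0136), and it also passed without the 40 fl library of replicate B (0.0215).

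Of the high-affinity transporters, HXT4 showed the steepest change of the 7 genes. HXT4 mRNA in replicate A was 5.63, 6.58, 6.99, 6.60, 6.63, 8.79, 8.44 and 8.24 log2 CPM in order of size. In replicate B it was 5.93, 5.35, 6.78, 7.03, 7.38, 8.50, 8.12 and 8.96, and in replicate C 6.05, 6.22, 6.53, 6.89, 7.65, 8.56, 8.30 and 8.97. All 9 libraries from 65 to 75 fl lie above all 15 libraries from 40 to 60 fl, and the 40 and 45 fl libraries overlap. The 40 fl value of B rests on 14 reads.

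HXT4 mRNA rose by 0.45 log2 per 5 fl (SE 0.04, edgeR adjusted p = 3.33e-09) and was 2.93 log2, or 7.61-fold, higher at 75 than at 40 fl (SE 0.33, edgeR adjusted p = 4.24e-06). In this end comparison 2 of the 7 genes passed, against 23.7% of all genes. Its largest single step, from 60 to 65 fl, was 1.34 log2 (SE 0.29) and did not pass on its own (edgeR adjusted p = 0.184). From 65 to 70 fl it was -0.33 (SE 0.28) and from 70 to 75 fl 0.48 (SE 0.29), so that the 3 largest sizes could not be put in order. Within the replicates its mRNA slope was 0.41 in A, 0.49 in B and 0.46 in C, each past the threshold (edgeR adjusted p = 0.000976, 0.000668 and 0.000699), where 18.4%, 7.18% and 10.5% of all genes were called.

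HXT2 moved the other way, with its highest level in the smallest cells. HXT2 mRNA was 6.64, 7.78 and 7.05 log2 CPM in A, B and C at 40 fl and 5.94, 5.86 and 5.78 at 45 fl. It reached its lowest mean at 65 fl with 5.28, 4.96 and 5.32, and stood at 5.69, 6.71 and 5.41 at 75 fl. The 40 fl libraries did not overlap those at 45 or 65 fl but overlapped those at 75 fl, where replicate B was above the 40 fl value of replicate A.

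HXT2 differed across sizes (edgeR adjusted p = 0.00858), and was 1.09 log2 lower at 75 than at 40 fl, a fitted change of -1.09 (SE 0.36, edgeR adjusted p = 0.0315). Without the 40 fl size the difference across sizes did not pass (edgeR adjusted p = 0.286), nor did it without replicate B (0.0997), without replicate C (0.0651) or without the 40 fl library of replicate B alone (0.0520). The slope over all sizes was -0.11 log2 per 5 fl (SE 0.05, edgeR adjusted p = 0.0694), and without the 40 fl size it was 0.010; it passed without the 70 fl or the 75 fl library of replicate B (0.0452 and 0.00961) and without replicate B as a whole (0.0258). The end comparison did not pass without replicate A (0.0904) or C (0.194).

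HXT7 was also highest on average at 40 fl, with the widest spread there. Its mRNA was 12.04, 10.29 and 11.35 log2 CPM in A, B and C at 40 fl, 10.46, 9.41 and 9.91 at 45 fl, and 9.31, 10.93 and 10.65 at 75 fl. The 40 fl value of replicate B, from the shallowest mRNA library, lay within the range of the larger sizes. HXT7 did not pass across sizes (edgeR adjusted p = 0.127) or along the slope (-0.08 log2 per 5 fl, SE 0.05, edgeR adjusted p = 0.232). Within replicate A the slope was -0.24 (SE 0.08, edgeR adjusted p = 0.0490), within B 0.11 and within C -0.05, and the difference of A from the mean of B and C did not pass (-0.27, SE 0.10, edgeR adjusted p = 0.400). Without replicate A HXT7 passed across sizes (0.0197) while its slope was 0.03.

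Among the regulators, MTH1 mRNA was 5.43, 5.45 and 6.17 log2 CPM in A, B and C at 40 fl, 6.43, 6.64 and 6.54 at 65 fl, 6.74, 6.59 and 6.42 at 70 fl and 5.59, 7.28 and 6.54 at 75 fl. The 40 fl value of B rests on 10 reads, the lowest count of any gene in that library. The 65 and 70 fl libraries lie above all 3 at 40 fl, and the 75 fl libraries spread from 5.59 to 7.28. Its slope was 0.13 log2 per 5 fl (SE 0.04, edgeR adjusted p = 0.00532). Without replicate B the slope was 0.10 and did not pass (0.127).

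The sensor gene RGT2 lay between 4.10 and 5.94 log2 CPM in all mRNA libraries, with a lowest mean of 4.56 ± 0.44 at 45 fl and a highest of 5.39 ± 0.50 at 70 fl (SD, n = 3). Its difference across sizes did not pass (edgeR adjusted p = 0.442), nor did its slope of 0.06 log2 per 5 fl (SE 0.04, edgeR adjusted p = 0.241). The 95% interval of that slope ran from -0.02 to 0.14. Its 40 fl values in B and C rest on 11 and 12 reads. None of the 7 genes passed in any of the 7 steps between neighbouring sizes by edgeR, whereas at an unadjusted p under 0.05 between 0 and 2 did in each step, and DESeq2 called 3 (HXT2 from 40 to 45 fl, HXT1 from 45 to 50 fl and HXT4 from 60 to 65 fl).

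Set against one another, the 5 counted transporters changed in their make-up. Of the mRNA reads per kb of these 5 genes, HXT4 held 1.89% ± 0.84 at 40 fl, 8.63% ± 1.34 at 60 fl, 18.3% ± 3.1 at 65 fl and, in the largest cells, 17.2% ± 3.4 (SD, n = 3). HXT7 held 74.3% ± 16.5 at 40 fl and 51.4% ± 10.1 at 75 fl. HXT3 held 16.8% ± 11.1 and 25.2% ± 7.6 at the same sizes, HXT2 5.56% ± 4.19 and 2.70% ± 0.92, and HXT1 1.37% ± 0.78 and 3.58% ± 1.67. The HXT4 shares at 40 and 75 fl are apart by more than their spread, and the mean ± SD ranges of the other 4 genes overlap. Together the 5 genes took between 0.0904% and 0.535% of the counted mRNA reads of a library, and between 0.153% and 0.944% of the footprint reads, the latter with or without replicate A. In footprints the HXT4 share depended on the replicate. It was 15.1% at 40 fl and 4.64% at 75 fl in A, 3.02% and 16.5% in B, and 3.98% and 17.1% in C.

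**Figure D2:**
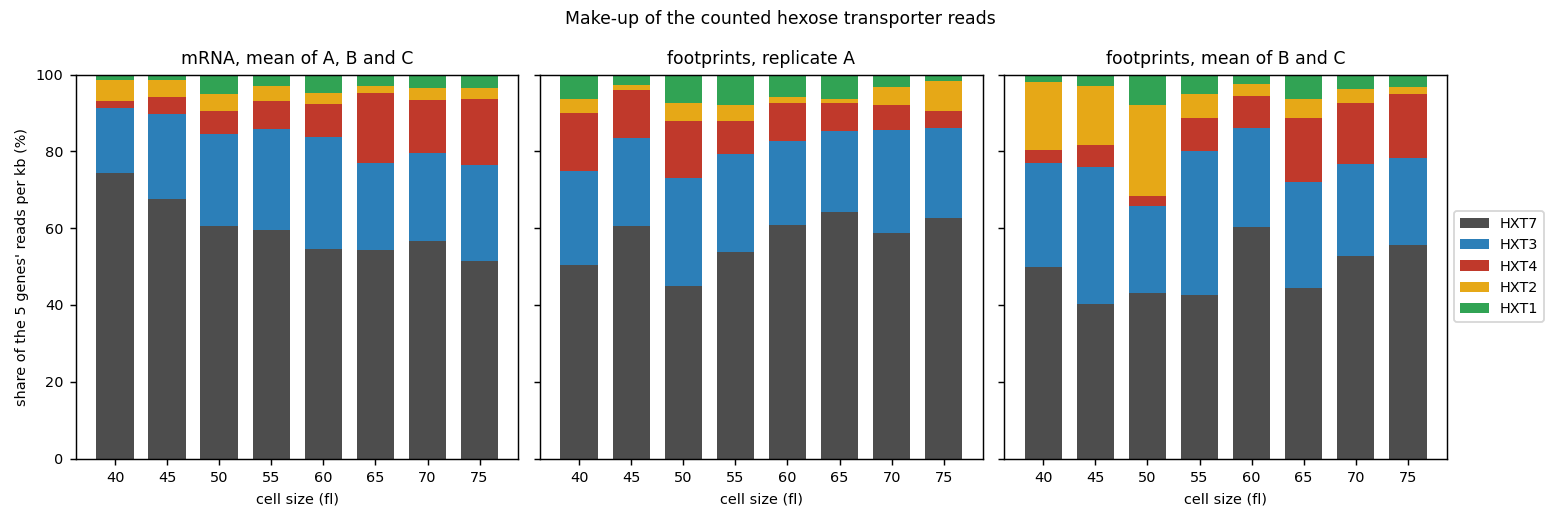
Share (%) of each of the 5 counted transporter genes in their summed reads per kb (y axis) at each cell size (fl, x axis), for mRNA as means of 3 libraries, for the footprints of replicate A alone, and for footprints as means of replicates B and C. In mRNA the HXT4 share goes from 1.89% at 40 fl to 17.2% at 75 fl and the HXT7 share from 74.3% to 51.4%; in footprints HXT4 goes from 15.1% to 4.64% in A and from 3.50% to 16.8% in the mean of B and C.

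The genes absent from the count tables have 1 authors' value per size, in log2 around the gene's own mean and without replicates, so no test was made. In the authors' deposited table HXT6 stood at 1.33, -0.66, -1.09, 0.06, -0.31, -1.40, 0.07 and 0.14 in order of size from 40 to 75 fl. HXT7 stood at 1.39 at 40 fl and -0.66 at 45 fl in the authors' deposited table, which is within 0.06 of HXT6 at these sizes. At 65 fl HXT6 was 0.98 lower than HXT7 (a difference of -0.98) and at 55 fl 0.67 higher.

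In the authors' deposited table HXT5 was lowest in the 45 fl cells (-1.03) and highest in the 70 fl cells (0.37), and so was SNF3 (-0.79 and 0.58). RGT2, the other sensor gene, had its extremes at the same sizes in the authors' deposited table (-0.48 and 0.41). The range over sizes in the authors' deposited table was 3.75 log2 for HXT4, above that of 98.1% of ORFs with values at all sizes, 3.09 for HXT1 (96.2%), 2.73 for HXT6 (94.0%), 1.40 for HXT5 (64.2%) and 1.37 for SNF3 (62.1%), against a median of 1.17.

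**Figure D3:**
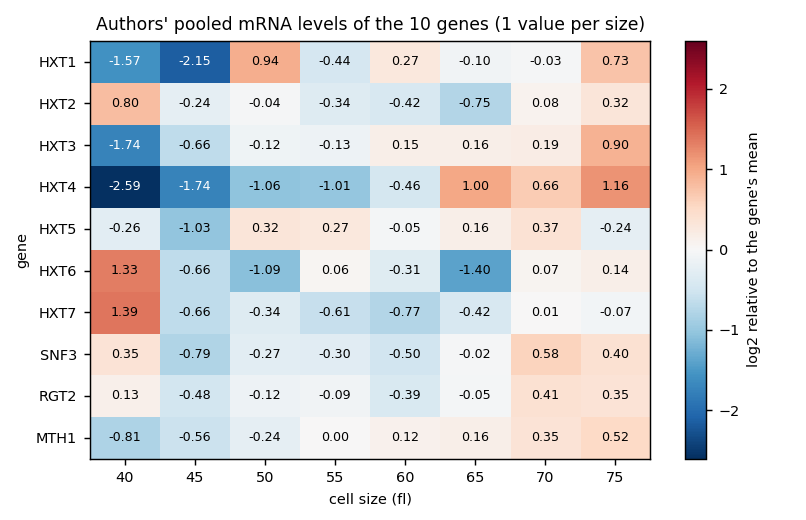
Authors' pooled mRNA level (colour and printed value, log2 relative to the gene's own mean) of the 10 genes (y axis) at each cell size (fl, x axis), 1 value per cell with no replicates. HXT4 goes from -2.59 at 40 fl to 1.16 at 75 fl, and HXT6 and HXT7 are highest at 40 fl. HXT5 and both sensor genes are lowest at 45 fl and highest at 70 fl, as are many of the uncounted genes listed outside the 10.

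For 6 of the 7 counted genes the authors' pooled values followed the mean counts over the 8 sizes, with Pearson r between 0.921 (RGT2) and 0.994 (HXT7). HXT3 did not, with r = 0.445 over the same 8 sizes. At 40 fl the authors' deposited table puts HXT3 at -1.74, whereas its counts at 40 fl were near their own mean over sizes. With both series centred on their mean, the difference at 40 fl was -1.66 log2, and only 4 of 3301 genes, HXT3 among them, had a difference as low. The 3 count libraries at 40 fl held 9.03, 9.38 and 8.34 log2 CPM of HXT3.

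In footprints, none of the 7 genes passed across sizes or along the slope when all 24 libraries were used. Across sizes edgeR called 0.515% of all genes, and 1 of the 7 (HXT2) had an unadjusted p under 0.05. Along the slope edgeR called 0% of all genes, and 3 of the 7 had an unadjusted p under 0.05. The footprint slopes were -0.22 log2 per 5 fl for HXT2 (SE 0.08), 0.22 for HXT4 (SE 0.09) and 0.15 for HXT7 (SE 0.06), each with an edgeR adjusted p of 0.722. DESeq2 and limma-voom also called none of the 7 along the footprint slope.

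The replicates did not share a direction for HXT4. HXT4 footprints in replicate A were 9.71, 9.46, 9.49, 8.33, 9.15, 9.47, 7.96 and 7.26 log2 CPM from 40 to 75 fl. In replicate B they were 7.12, 7.26, 6.66, 7.33, 8.27, 9.32, 9.13 and 9.65, and in replicate C 6.81, 7.19, 4.08, 7.78, 7.72, 9.11, 10.28 and 10.95. Replicate A is highest at the smallest size and lowest at the largest, and B and C the reverse apart from 50 fl; the 50 fl value of C rests on 1 read.

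**Figure D4:**
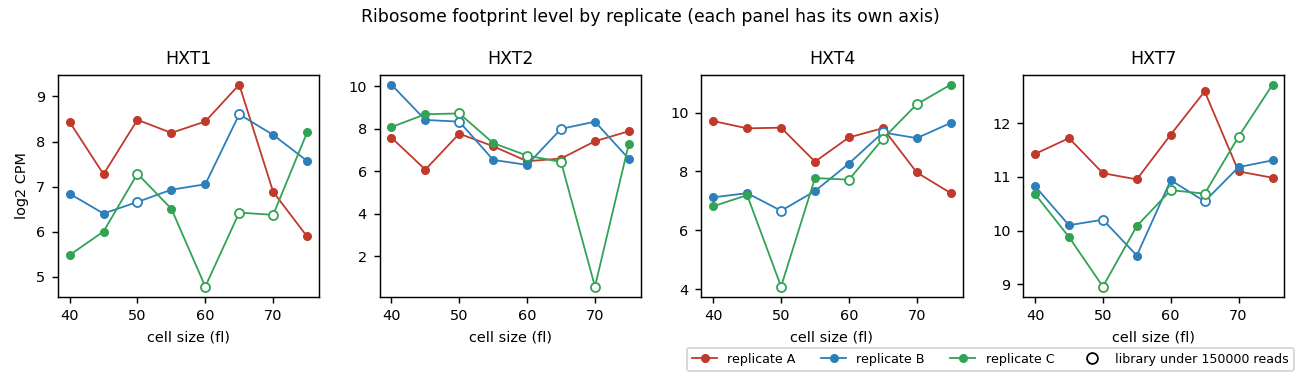
Footprint level (log2 CPM, y axes) against cell size (fl, x axes) for HXT1, HXT2, HXT4 and HXT7, 1 line per replicate; open symbols are libraries with under 150000 counted reads. For HXT4, A goes from 9.71 to 7.26 while B goes from 7.12 to 9.65 and C from 6.81 to 10.95; the low HXT2 point of C at 70 fl is a count of 0.

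The slope of HXT4 footprints was -0.25 log2 per 5 fl in A (SE 0.10, edgeR adjusted p = 0.169), 0.41 in B (SE 0.09, edgeR adjusted p = 0.00905) and 0.62 in C (SE 0.09, edgeR adjusted p = 5.55e-05). Of all genes 2.42%, 7.24% and 10.7% were called in A, B and C. The slope in A minus the mean of B and C was -0.77 (SE 0.12, edgeR adjusted p = 2.01e-05), a difference called in 26.1% of all genes and, among the 7, in HXT4 only. A replicate holds a single library per size, so this p reflects the scatter of libraries around the fitted lines, not the spread between replicate series. A was set against B and C with earlier results of these data known. By exact permutation over the 8 libraries of a replicate, the two-sided p for HXT4 was 0.0266 in A, 0.00313 in B and 0.0161 in C, and none of the 21 such tests passed after Benjamini-Hochberg adjustment (lowest 0.0656).

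In the 16 footprint libraries of B and C alone, 4 of the 7 genes passed along the slope, against 23.8% of all genes. HXT4 rose by 0.50 log2 per 5 fl (SE 0.06, edgeR adjusted p = 2.26e-06), HXT1 by 0.24 (SE 0.07, edgeR adjusted p = 0.0161) and HXT7 by 0.21 (SE 0.06, edgeR adjusted p = 0.00536). HXT2 fell by 0.32 (SE 0.08, edgeR adjusted p = 0.00480). All 6 thin libraries are in B and C, and with these left out too the same 4 genes passed, with slopes of 0.48, 0.28, 0.23 and -0.27 in that order, against 43.3% of all genes. The mRNA slopes of the same genes without replicate A were 0.48 for HXT4, 0.23 for HXT1, 0.03 for HXT7 and -0.11 for HXT2, of which those of HXT4 and HXT1 passed (edgeR adjusted p = 7.76e-08 and 0.0122). Across sizes 4 of the 7 passed without A (HXT2, HXT4, HXT7 and MTH1), against 15.6% of all genes. This test keeps the 6 thin libraries, in which MTH1 had between 0 and 11 reads, and was not run with A and the thin libraries both left out.

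**Figure D5:**
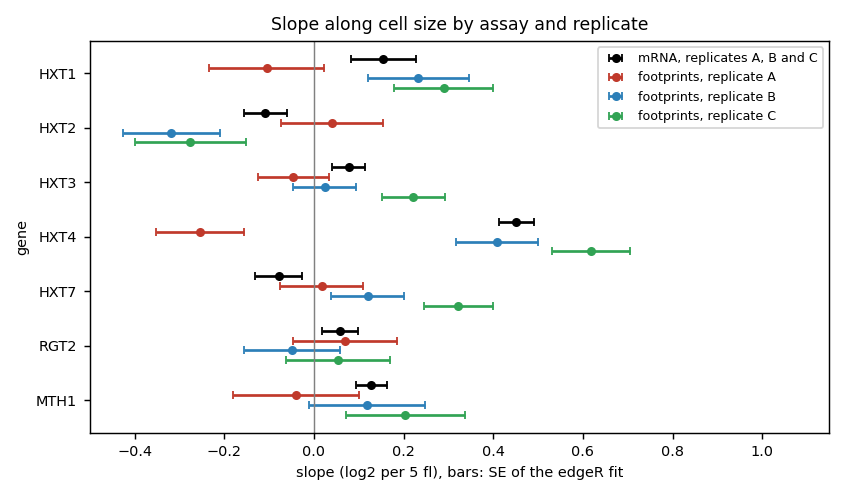
Slope along cell size (log2 per 5 fl, x axis) of the 7 counted genes (y axis) in mRNA over all replicates and in footprints within each replicate; bars are the SE of the edgeR fit. For HXT4 the mRNA slope of 0.45 lies between the footprint slopes of B (0.41) and C (0.62), and that of A is -0.25.

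The footprints of HXT2 in replicate B went from 10.07 log2 CPM at 40 fl to 6.57 at 75 fl, and in A from 7.57 to 7.87. In replicate C they went from 8.07 to 7.30, with 0 reads in the 70 fl library of 55709 reads, a count that allows up to 53.9 CPM. HXT7 footprints in C went from 10.68 at 40 fl through 8.96 at 50 fl to 12.72 at 75 fl. Its slope in C was 0.32 (SE 0.08, edgeR adjusted p = 0.0106), that of HXT3 in C was 0.22 (SE 0.07, edgeR adjusted p = 0.0385), and neither gene passed in A or B.

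Footprints of RGT2 and MTH1 were few. RGT2 had between 0 and 43 footprint reads per library and none in 5 of 24, all of them thin, where a count of 0 allows between 53.9 and 114 CPM. MTH1 had 0 to 206 footprint reads and none in 2 libraries. No difference between sizes was detectable for these regulators with all libraries at this depth.

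Relative to their mRNA, the transporters carried more footprints than most genes and the regulators about as many. Taking the log2 footprint level minus the log2 mRNA level of the same pool as translational efficiency, the median over the 18 pools whose footprint library had at least 150000 reads was 1.64 for HXT1, 1.48 for HXT2, 1.21 for HXT3, 0.99 for HXT4 and 0.54 for HXT7. It was -1.44 for MTH1 and -1.56 for RGT2, and the median of all 3301 genes was -1.17. HXT1 to HXT4 and HXT7 stand at percentiles from 81.9 to 93.8 of all genes, RGT2 at 40.8 and MTH1 slightly above it. RGT2 was below 0 in 18 of 18 pools, HXT3 above 0 in 18 of 18, and HXT7 above 0 in 15 of 18. Over the 10 such pools of B and C alone the medians were 1.42 for HXT1, 1.67 for HXT2, 1.14 for HXT3, 0.93 for HXT4 and 0.54 for HXT7, at percentiles from 82.1 to 94.1 of all genes. HXT4 had a median of 2.12 over the 8 pools of A. These values compare genes within this series and have no test.

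No member's translational efficiency was called as changing with size over all libraries. Across sizes 0 of 7 passed by edgeR against 0.333% of all genes, and 0 of 7 had an unadjusted p under 0.05. With the replicate block, here the pool, which pairs both assays of the same cells, it called 0 of the 7 and 0 of all genes, where 11 of all genes were called without it. Along the slope 0 of 7 passed against 0% of all genes; HXT7 (0.23 log2 per 5 fl, SE 0.08, edgeR adjusted p = 0.220) and HXT4 (-0.23, SE 0.10, edgeR adjusted p = 0.322) had an unadjusted p under 0.05. DESeq2 called none of the 7 in either. For HXT4 the slope of translational efficiency was -0.66 in A (SE 0.12, edgeR adjusted p = 0.000251), -0.09 in B (SE 0.12) and 0.16 in C (SE 0.11), where 17.3%, 0.0303% and 0.121% of all genes were called. The difference of A from the mean of B and C was -0.70 (SE 0.15, edgeR adjusted p = 0.00128), called in 16.2% of all genes. The limits given for the footprint difference between A and the other replicates hold here too. Without replicate A the HXT4 slope of efficiency was 0.02.

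Across the 24 mRNA libraries, in which all genes share each library's depth and cell size, the gene whose level was most like that of HXT4 was SIC1, the inhibitor of S phase cyclin kinase (Pearson r = 0.899), followed by YGR017W (0.899) and CHS1, a chitin synthase gene (0.886). SIC1 mRNA rose by 0.44 log2 per 5 fl (SE 0.03, edgeR adjusted p = 1.78e-11). That this is close to the slope of HXT4 follows largely from choosing SIC1 by its correlation with HXT4 in these same libraries. For HXT1 they were MIG1, which encodes a glucose repressor (0.797), ITC1 (0.774) and LPD1 (0.742), and for HXT2 they were PPQ1 (0.819), NFS1 (0.813) and COQ2 (0.810). Between members the highest r were 0.66 for HXT4 with MTH1 and 0.58 for HXT1 with HXT3, and the lowest was -0.41 for HXT2 with HXT4.

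Of the relay that links the sensors to Rgt1, 10 of 12 listed genes were counted, 2 differed across sizes, against 26.0% of all genes, and 3 rose in mRNA along the slope, with a median slope of 0.04 log2 per 5 fl. MIG2, which encodes a repressor of HXT genes, rose by 0.21 log2 per 5 fl (SE 0.06, edgeR adjusted p = 0.00752), and CYC8, a subunit of the general corepressor, by 0.18 (SE 0.03, edgeR adjusted p = 8.44e-05). YCK1, a casein kinase gene of the relay, rose by 0.10 (SE 0.03, edgeR adjusted p = 0.00241). STD1, the relative of MTH1, had a slope of 0.02 (edgeR adjusted p = 0.474) and GRR1, of the ubiquitin ligase that targets Mth1, -0.03 (0.207). RGT1 was not among the counted genes and in the authors' deposited table ranged from -0.46 at 60 fl to 0.62 at 70 fl.

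Of the Snf1 and Mig1 repression list 10 of 16 genes were counted, and MIG1 rose (0.12 log2 per 5 fl, SE 0.04, edgeR adjusted p = 0.0340) and SNF4, a subunit of the Snf1 kinase, fell by 0.10 (SE 0.03, edgeR adjusted p = 0.00463). Of the hexose phosphorylation genes 3 of 4 were counted; HXK1 rose by 0.15 (SE 0.06, edgeR adjusted p = 0.0445), and the slopes of HXK2 (0.01) and GLK1 (0.06) did not pass. In the cAMP and protein kinase A list, with 12 of 15 counted, RAS2 rose and GPA2 and TPK3 fell. In the list of ubiquitination of transporters, with 6 of 11 counted, the arrestin gene ALY1 rose. These counts per list stand beside the 19.4% of all genes that rose and the 22.1% that fell. None of the 14 other sugar transporter genes listed, HXT8 to HXT17, GAL2, STL1, MAL11 and MAL31, was counted.

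Of the Msn2 and Msn4 stress genes 9 of 15 were counted. In mRNA 3 of these 9 differed across sizes (HSP12, HSP104 and PGM2), against 26.0% of all genes, and 6 did not pass; along the slope 1 rose. Their summed mRNA level was 1721 ± 642 CPM at 40 fl and 4152 ± 2581 at 50 fl (SD, n = 3). It was 4095 ± 2099 CPM in the 60 fl cells and 2670 ± 523 in those of 75 fl. Summed core histone mRNA was 1531 ± 513 CPM at 40 fl and 11543 ± 2350 at 65 fl, where the HXT4 mean was 8.62 log2 CPM. The part of either in the values of the transporters was not tested.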

How the data were processed

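mRNA and ribosome footprints were measured at 8 cell sizes in 3 pools each, 24 libraries per assay. Per the submitters' processing notes the build was R64 and the tools included RSEM 1.2.20 and TopHat2 2.1.0; the role of each tool, and whether counting used strand, are not given in those notes. Counts, as the authors deposited them, are whole reads per gene for 3301 genes in 2 tables, not normalized. The authors also deposited a table of log2 mRNA levels per size, relative to the gene's mean, with replicates pooled; the latter was only described. The count tables do not name their assay. It was settled from a further log2 table that the authors deposited per library, with named mRNA and footprint blocks: each of the 24 columns of either count table was closest to the column of its own name, with a median absolute difference of 0.0135 (mRNA) or 0.0417 (footprints), where the other block gave 0.490 and 0.350. That table served no other purpose. Symbols came from a reference table of R64, in which 3260 of 3301 ORF names matched.

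Groups were the labelled sizes within an assay. The edgeR package (4.0.16, under R 4.3.3) fitted the counts by quasi-likelihood, using TMM factors; its filter on low counts removed 0 genes. Tests were an F-test over the sizes, a slope per 5 fl, neighbouring sizes, 40 against 75 fl, and, for translational efficiency, the interaction of assay with size over 48 libraries, all with Benjamini-Hochberg adjustment over all genes at 0.05. Slopes within a replicate were fitted with an interaction of replicate and size. CPM used TMM-scaled totals and log2 CPM a prior count of 2. Intervals rest on the SE of the edgeR fit, which includes the spread between pools. The limit that a count of 0 allows (3 counts) covers counting error only. Alternatives were median-of-ratios factors, DESeq2 1.42.0, limma-voom (limma 3.58.1), no filter, a replicate block (the replicate letter within an assay, the pool for translational efficiency), a prior count of 0.5, and leaving out a replicate or library; leaving out thin libraries or the 40 fl size, slopes within a replicate for mRNA and translational efficiency, and levels and shares without replicate A were added after the data were seen.

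The members, lists and tests were chosen with earlier results of these data known. Named genes were the 10 members, the 3 counted genes most correlated in mRNA with each member called across sizes, and from each list the 3 counted genes with the smallest p and the uncounted ones with the widest pooled range; not all are printed, and STD1, GRR1, HXK2 and GLK1 were named for their place in the pathway after their values were seen. Both libraries of a pool stem from the same cells and are thus paired; their deviations correlated at 0.114 on average, above 0.1 in 13 of 24 pools. No 2 libraries were identical. On simulated counts for 3301 genes, with 100 changed at each size of change, the mRNA slope test recovered 97% of slopes of 0.2 log2 per 5 fl (14 false among 211 calls). The mRNA test across sizes recovered 37% of changes of 1 log2 and 97% of those of 2 log2 (13 false among 147 calls). The footprint slope test recovered 30% of slopes of 0.2 and 95% of 0.4 (9 false among 134), the footprint test across sizes 37% of changes of 2 log2 (5 false among 42), and the slope test of translational efficiency 34% and 98% (18 false among 150). Figures used matplotlib 3.10.9 (Python 3.11.15).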

Additional observations from a re-analysis of the deposited data

Results flagged for a closer look

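The slope of HXT4 footprints in replicate A minus the mean slope of B and C was -0.77 log2 per 5 fl (SE 0.12, edgeR adjusted p = 2.01e-05), with slopes of -0.25 in A, 0.41 in B and 0.62 in C. The same difference in the HXT4 slope of footprints relative to mRNA was -0.70 log2 per 5 fl (SE 0.15, edgeR adjusted p = 0.00128). Both p-values reflect the scatter of libraries around the fitted lines, and A was set against B and C with earlier results known. The HXT4 mRNA slope rose in all 3 replicates, and its difference of A from the mean of B and C was -0.07 (SE 0.09, edgeR adjusted p = 0.831). Mean core histone footprints were also higher at 40 than at 75 fl in A (9.65 against 6.65 log2 CPM) and lower in B and C, which was not tested. The cause was not tested.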

How the results depend on the processing

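HXT4 mRNA kept its direction and its call across sizes, along the slope and between 40 and 75 fl under every alternative run for these tests. Between 40 and 75 fl DESeq2 called 4 of the 7 genes, adding HXT1 and MTH1 to HXT2 and HXT4, against 28.7% of all genes, and in the steps between neighbouring sizes it called 3. Leaving out a replicate or a single library gave 1 to 3 members across sizes in mRNA and 2 to 3 along the slope. For the other tests whole replicates were left out and single libraries were not, which gave 1 to 2 members between the ends in mRNA and, for footprints, 0 to 4 members across sizes and 0 to 4 along the slope, the 4 without replicate A. With A and the thin libraries both left out, 4 members and 1430 of all genes were called along the footprint slope.

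Over all genes, the mRNA calls across sizes numbered 111 to 972 with a replicate or a library left out, 460 without the 40 fl size and 1394 by DESeq2; slope calls numbered 888 to 1436 and, with replicates only left out, calls between the ends 208 to 533. With replicates left out, calls for footprints across sizes numbered 0 to 515, 10 with a replicate block, 0 by limma-voom, 52 by DESeq2 and 0 without the thin libraries, and along the slope 0 to 784. Those for translational efficiency numbered 0 to 30 across sizes, 0 with the replicate block, 36 by DESeq2 and 0 without the thin pools, and along the slope 0 to 28, 1 with median-of-ratios factors, 132 by DESeq2 and 4 without the thin pools. The replicate block changed no call of a member. Within an assay, deviations of the same letter at different sizes correlated at 0.05 on average for mRNA and 0.03 for footprints. They were above 0.1 in 39 and 34 of 84 pairs. Pairs of opposite sign cancel in such a mean, so it does not show whether the libraries of a letter belong together. The footprint slope of A differed from the mean of B and C in 26.1% of all genes.

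Slopes that changed sign were those of HXT2 mRNA (0.010) and HXT7 mRNA (0.074) without the 40 fl size and of MTH1 in translational efficiency with the replicate block (0.031). With a replicate left out, slopes ran from -0.14 to 0.026 for HXT7 mRNA, from -0.012 to 0.10 for HXT3 footprints and from -0.017 to 0.060 for RGT2 footprints. In translational efficiency they ran from -0.12 to 0.017 for HXT1, from -0.20 to 0.0038 for HXT2, from -0.094 to 0.012 for HXT3 and from -0.43 to 0.021 for HXT4. The cause was not tested. Depth limits the footprint results, where 6 of 24 libraries held under 150000 reads.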

Other observations

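The transporter genes outside HXT1 to HXT7 have pooled values only. In the authors' deposited table HXT10 ranged from -1.50 at 55 fl to 1.59 at 70 fl and HXT14 from -1.69 at 45 fl to 1.30 at 70 fl. MIG3, of the relay from the sensors, stood at -1.16 at 40 fl and 0.63 at 50 fl in the authors' deposited table, and EMI2, a relative of the glucokinase gene, ranged from -0.998 at 45 fl to 0.86 at 70 fl. Among the stress genes in the authors' deposited table, HSP26 ranged from -3.77 at 45 fl to 1.69 at 55 fl and DDR2 from -2.21 at 45 fl to 1.62 at 50 fl. None of these values has a replicate.

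After HXT3, the counted members whose pooled value at 40 fl lay farthest from the counts were HXT1, lower by -0.77 log2 after centring, and HXT4, lower by -0.66, whereas HXT7 was higher by 0.57. HXT3 was 1 of 5 genes, of the counted genes, with a difference at least as large in size. The sources used here do not say how the authors pooled the replicates.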
